A study of Mus musculus with 4 samples.

Results

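The SLAM receptors, their adaptor SAP and the kinase Fyn were followed in CD4+CD8+ double-positive (DP) thymocytes in which Chaf1b was targeted for deletion. The set was chosen by name and holds 8 genes: the receptor genes Slamf1, Slamf6, Ly9, Cd48, Cd84 and Slamf7, the adaptor gene Sh2d1a, which encodes SAP, and Fyn. All 8 were present among the 56239 genes of the count table, and 7 of them were among the 15070 genes with enough counts to be tested. Slamf7 was not, having at most 3 counts in any library.

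KO mice carried Cd4-cre with floxed Chaf1b on both alleles (CHAF1bfloxp/floxp), and WT mice carried the same floxed alleles with no Cre. All mice were on the C57BL/6 background, and DP cells were sorted from the thymus as CD4+CD8+. There were 2 KO and 2 WT libraries of poly(A)-selected RNA. The genotypes differ both in Chaf1b deletion and in the presence of Cre, so effects of these cannot be told apart, and neither the age of the mice nor the number pooled into a library is given. Cd4-cre is active from the stage at which Cd4 is transcribed, so transcripts and protein made before deletion can persist in DP cells. In both genotypes replicate 1 was female and replicate 2 male by Xist and the Y-linked genes.

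SLAM receptors are surface proteins of blood cells, most of which bind the same receptor on a neighbouring cell. Precursors of invariant natural killer T (iNKT) cells are selected in the thymus by other DP thymocytes, which present lipid on CD1d and engage SLAM receptors on the precursor at the same contact. SAP binds tyrosine motifs in the receptor tails and brings in Fyn, and mice that lack SAP or Fyn make few or no iNKT cells. The comparison therefore asks whether the transcripts of this contact differed in DP cells in which Chaf1b was targeted for deletion. Chaf1b encodes the p60 subunit of the chaperone that places histones on newly copied DNA.

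The sites at which SAP meets the receptors are short. The immunoreceptor tyrosine-based switch motif (ITSM) is a threonine, any residue, a tyrosine, any 2 residues and then a valine or an isoleucine. The codons of this motif were looked for in frame in the annotated transcript with the longest coding sequence of each gene, within its last 120 codons. Slamf1, Slamf6, Ly9 and Cd84 each had 2 such sites, Slamf7 had 1, and Cd48 had 0 there, Cd48 being held in the membrane by a lipid anchor in place of a tail. The sites are shown because their number ran from 0 to 2 over these receptors. They are matches to the motif, and binding of SAP to them was not tested. Each is 18 bases of the coding strand on GRCm38, from GENCODE M21, with the tyrosine codon in capitals, and is given in transcript order.
Slamf1, chr1:171792339-171792356, plus strand: actattTATgcccaagta
Slamf1, chr1:171799588-171799605, plus strand: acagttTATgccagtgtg
Slamf6, chr1:171939437-171939454, plus strand: actgtgTATgcacaagtc
Slamf6, chr1:171941664-171941681, plus strand: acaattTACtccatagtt
Ly9, chr1:171593912-171593929, minus strand: actccaTATgataaagtg
Ly9, chr1:171593438-171593455, minus strand: acaatcTACtgctctgtg
Cd84, chr1:171884605-171884622, plus strand: acagtaTATgctgtagtt
Cd84, chr1:171885601-171885618, plus strand: accattTATtcctcagtg
Slamf7, chr1:171636327-171636344, minus strand: acatttTATtccactgtg

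The libraries held 21068760 to 27369874 counts, and values below are CPM, counts relative to the TMM-scaled library total, unless TPM is named. Deletion was read first from Chaf1b itself, which had 12.2 and 14.8 CPM in KO replicates 1 and 2, against 27.8 and 31.7 CPM in WT replicates 1 and 2. KO minus WT was -1.14 ± 0.16 (SE) on the log2 scale. The adjusted p was 0.267 in edgeR's quasi-likelihood test with Benjamini-Hochberg adjustment, and 0.0172 when the replicate number, which here separates the sexes, was a term. Counts cover all exons, and which exons are floxed is not given in the labels. Transcripts of the DP stage were abundant in every library. Cd4 had 2064 and 1895 CPM in KO and 1812 and 1886 CPM in WT. Cd8b1 had 1906 and 1925 CPM in KO and 1721 and 1638 CPM in WT. Of the 14 listed DP markers, both KO libraries lay above both WT libraries for 7 and below them for 5. The shares over all tested genes were 27.9% and 28.4%. Among the 5 was Cd1d1, which encodes CD1d, with 60.4 and 80.6 CPM in KO and 103.7 and 113.4 CPM in WT. Its log2 fold change was -0.62 (edgeR adjusted p = 0.267, and 0.0371 with the replicate number as a term). KO replicate 1 stood apart from the other libraries, with 3.30% of its counts from the mitochondrial chromosome, against 2.03% in KO replicate 2 and 1.33% and 1.45% in WT, and the part of this in the values below was not tested.

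None of the 7 tested genes was called higher or lower in KO. edgeR's planned test, which compared the genotypes with no other term at an adjusted p of 0.05, called 0.00664% of all tested genes, so it gave little room for a call. With the replicate number as a term edgeR called 3.21% of all tested genes (1.01% higher and 2.2% lower in KO) and again 0 of these 7. DESeq2, which called 3.07% of all tested genes, and limma-voom, which called 0.00664%, also called 0 of them. Ly9 was the only one with an unadjusted p under 0.05 in edgeR's planned test, where 16.8% of all tested genes had one, and with the replicate term, where 21.4% did. Limma-voom likewise had 1 such gene and DESeq2 had 0. Without KO replicate 1, the library that stood apart, KO replicate 2 was the only KO library left. The log2 fold changes were then 0.24 for Ly9, 0.37 for Cd48, -0.12 for Cd84, -0.16 for Fyn, 0.11 for Sh2d1a, 0.09 for Slamf6 and 0.01 for Slamf1. In the planned test the 95% intervals of the 7 fold changes lay between 0.720 and 1.61, so larger changes lie outside every interval, while smaller ones were not resolved.

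**Figure D1:**
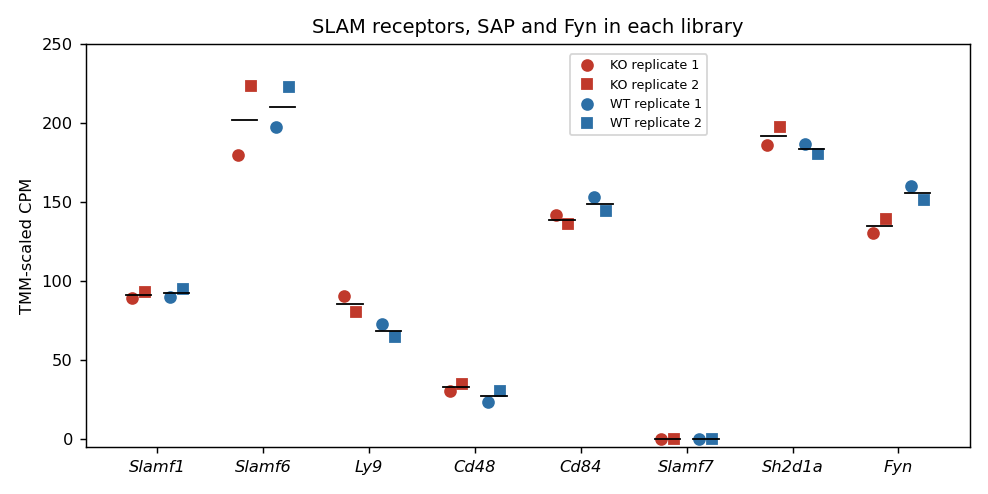
TMM-scaled CPM (y axis, linear) of the 8 genes in each library, with KO in red left of WT in blue, circles for replicate 1, squares for replicate 2 and black bars for the mean of 2 libraries. Slamf1 lies between 89.5 and 94.7 CPM in all 4 libraries, Fyn is lower and Ly9 higher in both KO libraries than in both WT libraries, and Slamf7 lies at the bottom of the axis.

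Slamf1 and Slamf6 are the receptors whose combined engagement between DP cells is required for iNKT precursors in mice. Slamf1 (ENSMUSG00000015316, chr1:171767127-171801184) had 89.5 and 92.9 CPM in KO replicates 1 and 2, against 90.2 and 94.7 CPM in WT replicates 1 and 2. The groups overlapped and all 4 values lay within 0.082 of each other on the log2 scale, the narrowest range of the 7 genes. Its mean was 91.2 ± 2.44 CPM in KO and 92.4 ± 3.20 CPM in WT (SD, n = 2 each), a log2 fold change of -0.02 with a 95% interval from -0.28 to 0.24 (edgeR adjusted p = 0.936). Slamf6, also called Ly108 (ENSMUSG00000015314, chr1:171917515-171953170), had 179.6 and 223.7 CPM in KO and 197.7 and 222.9 CPM in WT. The lower value of each group was that of replicate 1, and the groups overlapped. Its log2 fold change was -0.06 with a 95% interval from -0.42 to 0.30 (edgeR adjusted p = 0.848).

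Ly9 encodes a receptor that binds itself on another cell and whose loss in mice enlarges innate-like T cell populations. Ly9 (ENSMUSG00000004707, chr1:171588624-171607410) had 90.6 and 80.5 CPM in KO replicates 1 and 2, against 72.9 and 64.4 CPM in WT replicates 1 and 2. Both KO libraries stood above both WT libraries, and the log2 difference was 0.31 in the replicate 1 pair and 0.32 in the replicate 2 pair. The mean was 85.6 ± 7.16 CPM in KO and 68.6 ± 6.01 CPM in WT (SD, n = 2 each). That is 1.25-fold, or 0.32 ± 0.13 (SE) on the log2 scale, with an unadjusted p of 0.0473 and an adjusted p of 0.294 in edgeR. Without KO replicate 2, which leaves 1 KO library, edgeR called it (log2 fold change 0.40, adjusted p = 0.0117), as it did 32.3% of the 15953 genes in that fit. The adjusted p ran from 0.0117 to 0.958 over the 11 alternatives.

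Cd48 encodes a small lipid-anchored receptor that in mice binds CD2 and CD244. Cd48 (ENSMUSG00000015355, chr1:171682009-171705258) had 30.7 and 34.8 CPM in KO and 23.4 and 30.5 CPM in WT, from 556 to 865 counts per library. The lower KO value lay just above the higher WT value, and WT replicate 1 was the lowest library. The log2 fold change was 0.28 with a 95% interval from -0.13 to 0.68 (edgeR adjusted p = 0.409). Cd84 encodes a self-binding receptor of many blood cells. Cd84 (ENSMUSG00000038147, chr1:171839697-171890718) had 141.9 and 135.8 CPM in KO and 152.9 and 144.0 CPM in WT. Both KO values lay below both WT values by a margin smaller than the spread within a group. The log2 fold change was -0.10 with a 95% interval from -0.36 to 0.16 (edgeR adjusted p = 0.650).

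Slamf7 encodes a receptor of NK, plasma and activated cells that was at the limit of detection. The counts of Slamf7 (ENSMUSG00000038179, chr1:171632403-171653035) were 3 in KO replicate 1, 0 in KO replicate 2 and 2 in each WT library. The exact Poisson 95% intervals were 0.619 to 8.77 counts and 0 to 3.69 counts in KO, against 0.242 to 7.22 counts in each WT library, and cover counting error only. A limit of 3 counts stands for 0.106 to 0.139 CPM in these libraries, and every Slamf7 value was at or under it, so no fold is given. Of its 4577 exon bases, 423 are shared with Gm37787 on the other strand, and fragments there were not assigned to either gene.

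Sh2d1a is X-linked and encodes SAP, a protein made of little more than an SH2 domain that holds receptor tails and Fyn at once. Sh2d1a (ENSMUSG00000005696, chrX:42502453-42529330) had 186.3 and 197.6 CPM in KO replicates 1 and 2, against 186.9 and 180.4 CPM in WT replicates 1 and 2. The female libraries were nearly level and the male KO library was the highest of the 4, so the groups overlapped. The mean was 192.0 ± 8.05 CPM in KO and 183.7 ± 4.65 CPM in WT (SD, n = 2 each), a log2 fold change of 0.06 with a 95% interval from -0.20 to 0.32 (edgeR adjusted p = 0.775). Exon bases of Sh2d1a shared with Tenm1 on the other strand made up 26.6% of its length, and fragments within them were left out.

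Fyn encodes a Src family kinase that SAP recruits and that also acts at the T cell receptor. Fyn (ENSMUSG00000019843, chr10:39368855-39565381) had 130.4 and 139.3 CPM in KO replicates 1 and 2, against 160.3 and 151.6 CPM in WT replicates 1 and 2. Both KO libraries lay below both WT libraries, with log2 differences of -0.30 and -0.12 in the replicate 1 and replicate 2 pairs. The mean was 134.9 ± 6.26 CPM in KO and 155.9 ± 6.14 CPM in WT (SD, n = 2 each). That is 0.865-fold, or -0.21 ± 0.11 (SE) on the log2 scale, with a 95% interval from -0.47 to 0.06 (edgeR adjusted p = 0.358). With KO replicate 1 as the sole KO library edgeR called it (log2 fold change -0.26, adjusted p = 0.0165), in the same fit that called 32.3% of all genes. The adjusted p ran from 0.0165 to 0.994 over the 11 alternatives.

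**Figure D2:**
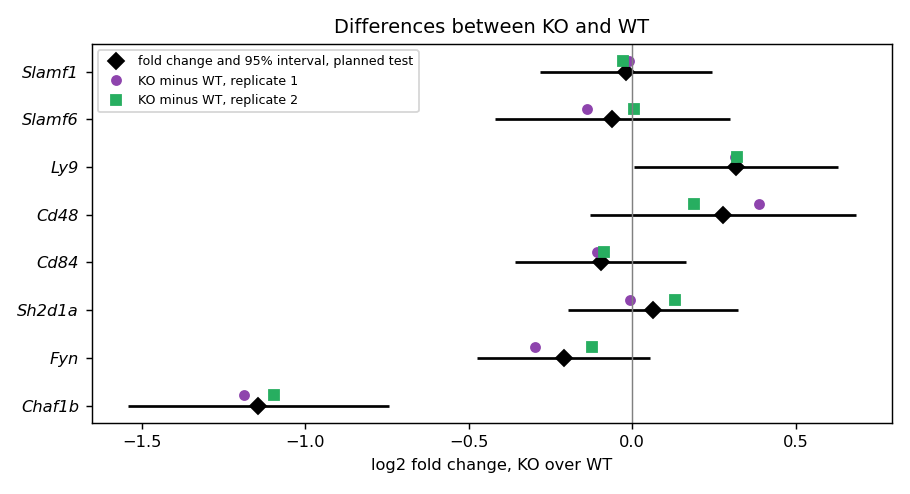
Log2 fold change of KO over WT (x axis) for the 7 tested genes and Chaf1b, with black diamonds and lines for edgeR's planned fit and its 95% interval, and circles and squares for the difference within the replicate 1 and replicate 2 pair. The intervals of 6 of the 7 genes cross 0, that of Ly9 begins at 0.0052, and Chaf1b lies apart at -1.14.

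Of the 7 tested genes, 4 did not overlap between the genotypes: Ly9 and Cd48 were above in KO, and Cd84 and Fyn were below. That is 57.1% of them, against 56.3% of all tested genes (27.9% above and 28.4% below in KO), so the share was close to the background. Markers of other cell types were summed beside these values, and the sums differed in direction between lists. The 8 listed B cell markers summed to 33.2 and 31.5 CPM in KO and 18.04 and 23.8 CPM in WT, most of it Cd79b, while Ms4a1 was at or below 0.231 CPM in every library. Cd79a, whose product pairs with that of Cd79b, had 0.705 and 0.878 CPM in KO and 1.14 and 2.11 CPM in WT, lower in both KO libraries. The 11 listed NK and gamma-delta markers summed to 161.9 and 128.0 CPM in KO and 116.8 and 98.2 CPM in WT, mostly Trdc and Gzma, with 3 of them (Ncr1, Gzmb and Klrd1) at 0 in all libraries. The 10 markers of mature single-positive cells summed to 300.0 and 255.4 CPM in KO and 223.7 and 212.5 CPM in WT. The 8 double-negative thymocyte markers summed to 117.8 and 90.9 CPM in KO and 91.6 and 86.5 CPM in WT, which overlapped. The 10 of macrophages and granulocytes summed to 10.7 and 12.3 CPM in KO and 17.2 and 15.4 CPM in WT, but did not move together. Of the 5 that were tested, 3 were below in both KO libraries and 1 was above. The latter was Csf1r, with 2.56 and 1.34 CPM in KO and 0.590 and 0.811 CPM in WT. The part of such cells in the values of Ly9 and Cd48 was not tested, and in sorted bulk samples fewer cells of a type and less RNA per cell cannot be told apart.

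Levels of different genes were set side by side per length, as TPM, the usual measure of transcript abundance per unit of length, with the deposited merged exon lengths. In KO the order was Sh2d1a (120.6 ± 15.7 TPM), Fyn (107.0 ± 14.4 TPM), Cd48 (95.4 ± 16.9 TPM), Ly9 (89.0 ± 0.460 TPM), Cd84 (76.3 ± 4.41 TPM), Slamf6 (64.7 ± 15.7 TPM) and Slamf1 (51.2 ± 5.92 TPM; SD, n = 2 each), with Slamf7 last at a mean of 0.047 TPM. In WT it was Fyn (135.0 ± 4.48 TPM), Sh2d1a (126.1 ± 2.404 TPM), Cd84 (89.4 ± 3.21 TPM), Cd48 (85.7 ± 16.4 TPM), Ly9 (78.4 ± 6.37 TPM), Slamf6 (73.4 ± 6.69 TPM) and Slamf1 (56.7 ± 2.32 TPM; SD, n = 2 each), with Slamf7 last at 0.064 TPM. In KO each of these overlapped its neighbour in the order, except that both Cd84 values lay below both Ly9 values and Slamf7 lay below all. In WT the values of Cd84, Cd48, Ly9 and Slamf6 overlapped from neighbour to neighbour, while Slamf1 lay below Slamf6, and Fyn above Sh2d1a, in both libraries. These levels placed Slamf1 at the 74.7th and Fyn at the 90.4th percentile of all tested genes in WT. The order depends on the length used: counting per kilobase of the longest annotated coding transcript put Sh2d1a first, Slamf6 at place 4 and Slamf1 at place 5 of 8 in WT, in place of 2, 6 and 7, the merged exons of Sh2d1a, Slamf6 and Slamf1 being 5505, 10832 and 6156 bases long and their longest coding transcripts 1223, 5729 and 2693 bases. That second length was added after the data were seen. The merged exon length of Sh2d1a includes the 26.6% of bases in which fragments were left out, which lowers its TPM. Fyn shares no exon bases with another gene, and the order of these 2 genes was not corrected for this.

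The 6 receptor genes summed to 346.1 and 407.3 TPM in KO replicates 1 and 2, against 372.6 and 395.0 TPM in WT replicates 1 and 2. The WT values lay inside the KO range, and 2 libraries against 2 are too few for a permutation test to show a difference, since its smallest exact p is 0.333. Within that sum Ly9 made up 25.6% and 21.9% in KO and 22.3% and 18.7% in WT. Cd84 made up 21.2% and 19.5% in KO and 24.6% and 22.1% in WT, so its share was lower in both KO libraries than in either WT library. Slamf1 took 13.6% in each KO library and 14.8% in each WT library. The sizes of these shares rest on the merged exon lengths, as the order of levels above does.

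**Figure D3:**
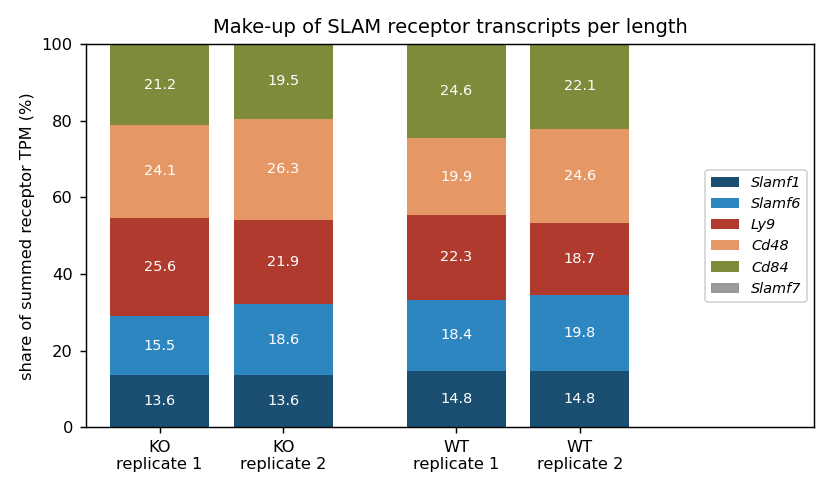
Share of the summed TPM of the 6 receptor genes (y axis, percent) taken by each gene in each library, with KO left of WT and TPM from the merged exon lengths. The shares of Slamf1 are 13.6% in both KO and 14.8% in both WT libraries, those of Cd48 overlap between genotypes, and Slamf7 is too small to be seen.

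Ratios within a library do not depend on how libraries are scaled, and those given here were chosen after the values were seen, so they carry no test. The ratio of Sh2d1a to Fyn in TPM was 1.13 and 1.12 in KO replicates 1 and 2, against 0.925 and 0.943 in WT replicates 1 and 2. The ratio of Ly9 to Cd84 was 1.21 and 1.12 in KO and 0.904 and 0.848 in WT. Both ratios lay above 1 in KO and below 1 in WT, the position relative to 1 resting on the lengths used. For Sh2d1a it also rests on the fragments left out where its exons are shared with Tenm1. By contrast Slamf6 over Slamf1 was 1.14 and 1.37 in KO and 1.25 and 1.34 in WT, with the WT values inside the KO range.

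The 6 receptor genes lie side by side on chromosome 1, from chr1:171588624 to chr1:171953170 on GRCm38, a stretch of 364.5 kb. With 200 kb on either side the deposited table lists 38 genes there, of which 20 were tested and 13 had under 10 counts over all 4 libraries. None of the 15 tested genes other than the receptors was called by edgeR's planned test or with the replicate term, nor by DESeq2 or limma-voom, and 1 had an unadjusted p under 0.05 in each. Their median log2 fold change was -0.12, against -0.0026 for all tested genes, with 7 above 0 and 8 below. They ran from -0.58 for A630035G10Rik to 0.60 for Gm37010, each with 31 counts or fewer in every library. Vangl2, a planar cell polarity gene beyond Slamf6, had 45.4 and 56.2 CPM in KO and 70.2 and 68.2 CPM in WT (log2 fold change -0.45, edgeR adjusted p = 0.267). Arhgap30, at the other end, had a log2 fold change of -0.20, Copa one of 0.09, the uncharacterised model Gm10521, just past Cd84, one of -0.21, and Gm37065, whose span reaches into that of Slamf6 on the other strand, one of -0.17. The other family member within the window, Cd244a, which encodes the CD48-binding receptor of NK cells, was counted 3 and 2 times in KO and 1 and 0 times in WT.

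**Figure D4:**
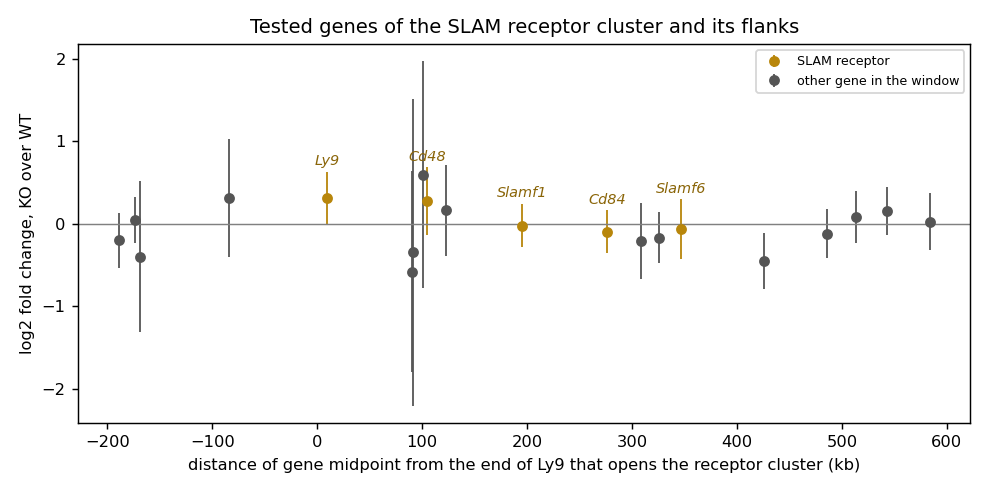
Log2 fold change of KO over WT with its 95% interval in edgeR's planned fit (y axis) for the 20 tested genes, by distance of the gene's midpoint from the end of the receptor cluster nearest Ly9 (x axis, kb), with receptors in gold and other genes in grey. The receptors run from -0.10 for Cd84 to 0.32 for Ly9, and the widest intervals belong to gene models of low counts near Cd48.

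The pattern of Cd48, whose range over the 4 libraries was the widest of the 7 genes at 0.57 on the log2 scale, was closest to those of Fam136a, Il10ra and Rora among 9946 genes of at least 5 CPM. Likeness was the root mean square distance between centred log2 CPM values over the 4 libraries, and it was 0.015, 0.027 and 0.033 for these genes. In each of the 3, as in Cd48, WT replicate 1 was the lowest library and KO replicate 2 the highest. This follows from their choice by distance to Cd48 and is no result about these genes.

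Genes that act with these receptors were read from 6 lists, on which 62 genes stand and 55 were tested. Neither edgeR's planned test nor the fit with the replicate term called any of the 55, limma-voom called 0 and DESeq2 called 1 (Myb), and 9 of the 55 had an unadjusted p under 0.05 in the planned test, where 16.8% of all tested genes had one. Their median log2 fold change was 0.06, with a range from -0.91 to 0.87. Of the 55, 74.5% did not overlap between the genotypes, 20 above in KO and 21 below, against 56.3% of all tested genes.

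Partners of the receptors at the membrane came out as follows. Cd2, the receptor for CD48, had 87.3 and 76.2 CPM in KO and 77.6 and 67.4 CPM in WT (log2 fold change 0.17, edgeR adjusted p = 0.516), and it was the only one of its list of 6 that could be tested. The others were Cd244a, Slamf8, Slamf9 and the genes of SAP's relatives, Sh2d1b1 and Sh2d1b2, each with 0 to 4 counts per library. Among phosphatases that bind the same tails, none of 4 passed. Ptpn6, which encodes the inhibitory phosphatase SHP-1, had 158.3 and 171.9 CPM in KO and 226.8 and 191.3 CPM in WT (log2 fold change -0.34, edgeR adjusted p = 0.283), and Ptpn11, which encodes SHP-2, had 199.4 and 165.8 CPM in KO and 153.9 and 153.8 CPM in WT (log2 fold change 0.25, edgeR adjusted p = 0.356).

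Src family kinases and their regulators held 12 tested genes of 13, with 0 called and a median log2 fold change of -0.01. Lck, the main Src kinase of thymocytes, had 1425 and 1699 CPM in KO and 2103 and 1866 CPM in WT, below in both KO libraries (log2 fold change -0.35, edgeR adjusted p = 0.351). Its ratio to Fyn in TPM was 16.3 and 18.2 in KO and 19.5 and 18.3 in WT. Cbl, which encodes a ubiquitin ligase of activated kinases, had a log2 fold change of 0.04. The list of signalling below SAP and Fyn had 18 tested genes of 18, 0 called and a median log2 fold change of 0.07, with 10 above 0 and 8 below. Among its most abundant genes, Vav1, an exchange factor for small GTPases, had a log2 fold change of 0.07.

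Genes known to be induced downstream of these contacts in iNKT precursors had 10 tested of 11, 0 called and a median log2 fold change of 0.10. Id3, an inhibitor of E proteins, had 67.3 and 76.3 CPM in KO and 94.3 and 92.8 CPM in WT (log2 fold change -0.38, edgeR adjusted p = 0.267). Egr1, an immediate-early factor, had a log2 fold change of 0.14. Zbtb16, which encodes the iNKT lineage factor PLZF and is named after its values were seen, was counted 4 times in KO replicate 1 and not at all elsewhere.

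**Figure D5:**
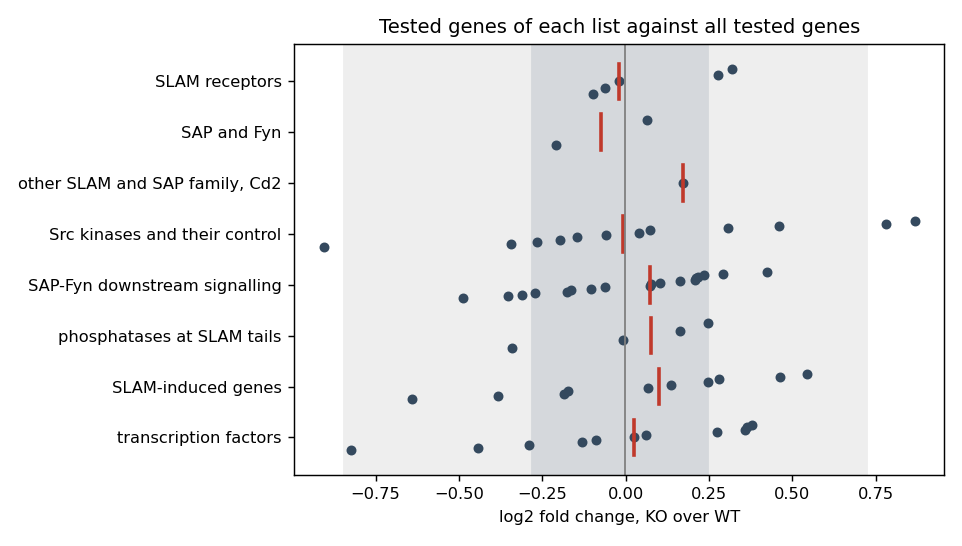
Log2 fold change of KO over WT (x axis) for the tested genes of each list (points), with the list median as a red bar, the middle 50% of all 15070 tested genes in dark grey, their 5% to 95% range in light grey and their median as a line. All 7 tested receptor, SAP and Fyn genes lie within the light grey band, from -0.21 to 0.32, and every list median lies within the dark grey band.

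Transcription factors of DP thymocytes, some of them reported to act on SLAM and SAP genes, had 11 tested of 11, with 0 called by edgeR and a median log2 fold change of 0.03. Tcf7 had a log2 fold change of -0.09 and Ets1 one of 0.28 (edgeR adjusted p = 0.814 and 0.385). Myb, named after its values were seen because DP cells without it in mice express less Slamf1, Slamf6 and SAP, had 535.4 and 774.9 CPM in KO and 1159 and 1160 CPM in WT. Both KO libraries lay far below both WT libraries, yet the adjusted p in edgeR was 0.267 in the planned test and 0.0536 with the replicate term. The promoters of Slamf1 and Slamf6 are given beside these values. They are RefSeq windows on GRCm38.p6 from 250 bases before to 50 after the start, plus strand, with matches to the Myb core AACNG, searched on both strands (CNGTT), in capitals.
Slamf1, chr1:171766882-171767181: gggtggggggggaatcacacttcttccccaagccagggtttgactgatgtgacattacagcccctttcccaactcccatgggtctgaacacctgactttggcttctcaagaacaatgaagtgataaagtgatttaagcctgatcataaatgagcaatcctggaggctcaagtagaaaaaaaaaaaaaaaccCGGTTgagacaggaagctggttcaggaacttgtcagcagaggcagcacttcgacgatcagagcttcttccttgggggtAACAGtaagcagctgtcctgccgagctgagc
Slamf6, chr1:171917212-171917511: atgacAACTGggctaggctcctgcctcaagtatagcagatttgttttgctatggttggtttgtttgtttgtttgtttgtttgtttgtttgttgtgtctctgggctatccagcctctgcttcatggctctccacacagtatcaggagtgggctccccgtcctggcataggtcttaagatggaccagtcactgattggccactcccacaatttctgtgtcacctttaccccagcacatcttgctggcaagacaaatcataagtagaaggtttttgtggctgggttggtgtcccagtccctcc
The Slamf1 window held 2 matches and that of Slamf6 held 1, which overlapped an E-box (CANNTG). Such a match was present in 80.3% of the 32851 promoter windows of the same length, so it sets neither gene apart. The table held windows for 6 of the 8 genes, and all 6 had at least 1 match, Cd48 and Slamf7 having 4 each. Side by side, Myb stood at a log2 fold change of -0.82, Slamf1 at -0.02, Slamf6 at -0.06 and Sh2d1a at 0.06.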

How the data were processed

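Per the labels' protocols, RNA of sorted DP thymocytes was selected with poly-T beads and turned into libraries without strand information. Software named in the submitters' processing notes is HISAT2, Trim Galore 0.5.0, featureCounts 1.6.4, FastQC and DESeq2, on GRCm38; the file header names featureCounts 1.6.3. The deposited values are raw counts of fragments over exons of Ensembl 98 genes, per the file headers, with no strand, multi-mapping or multi-overlap option, so shared fragments were left out. The deposited gene length, per the file headers, entered TPM only. Symbols came from GENCODE M21, which matched 55154 of 56239 IDs.

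Totals and floors are in the report; intervals of counts are exact Poisson and cover counting error only. Genes were kept with filterByExpr of edgeR 4.0.16 (15070 genes). TMM factors were 0.919 to 1.04, and KO minus WT was tested by its quasi-likelihood method in R 4.3.3, with Benjamini-Hochberg adjustment over all tested genes and a threshold of 0.05. Standard errors and 95% intervals come from its F statistics and their degrees of freedom. Within a pair, log2 CPM values with 2 as prior count were subtracted. Alternatives were the replicate number as a term, DESeq2 1.42.0, limma 3.58.1's voom, other scalings, no filter, robust dispersion and each library left out. The edgeR, DESeq2 and limma steps were tested on simulated counts.

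Genes were named as follows: all 8 genes; Chaf1b; from each of the 6 lists the genes past the threshold, else the 2 with the highest TPM; tested genes of the chromosome 1 window; and the 3 nearest patterns to that of the widest-ranging gene. Myb, Zbtb16, Cd1d1, Yes1, Blk, the named cell type markers and the untested family genes are named outside this rule. Of the window's tested genes a few stand for the rest, and 1 gene that the rule names is not reported here. The genes and lists were chosen with earlier results of these data known. The labels do not say whether replicates came from separate mice. By Xist and the Y-linked genes the 2 libraries of each genotype were of opposite sex, so they were not repeats of the same mouse. P-values reflect only how these libraries scatter, and in the planned test that scatter includes the difference between the sexes.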

Additional observations from a re-analysis of the deposited data

Results flagged for a closer look

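Slamf6 differed in direction between the replicate pairs, with a log2 difference of KO minus WT of -0.14 in the replicate 1 (female) pair and 0.0049 in the replicate 2 (male) pair. Sh2d1a did so as well, at -0.0053 for the female libraries and 0.13 for the male ones. Each rests on 1 KO and 1 WT library per pair, in each case 1 of the 2 differences is close to 0, and the difference between the pairs was not tested. The female KO library is KO replicate 1, which stood apart in its mitochondrial share. Sex, the state of that library and anything else that goes with the replicate number cannot be told apart here.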

How the results depend on the processing

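With the replicate block, the replicate number as a term, edgeR called 152 genes higher and 331 lower over all genes in place of 1 and 0, and DESeq2 called 177 and 285. With no filter edgeR called 627 and 838. Over the fits that leave out 1 library the calls ran from 1 to 2518 higher and 0 to 2630 lower: 171 and 349 without KO replicate 1, 2518 and 2630 without KO replicate 2. Of the 7 tested genes, 1 was called higher (Ly9) and 1 lower (Fyn) without KO replicate 2, and 0 in each direction under the other 10 alternatives, the block included, so these counts ran from 0 to 1. Such a fit takes the lone KO library to vary like the WT ones. The cause of these differences was not tested. Small fold changes turned round: without 1 library Slamf1 ran from -0.054 to 0.019, above 0 without KO replicate 1 (0.012) or WT replicate 2, Slamf6 ran from -0.23 to 0.094, above 0 in the same fits, and Sh2d1a was -0.015 when scaled by library totals, a scaling that moved the median of all tested genes to -0.084. Ly9, Cd48, Cd84 and Fyn kept their direction under all 11 alternatives. The summed receptor level differed by -1.84% of WT in TPM, by 0.575% in CPM, by -7.11% within replicate 1 and 3.13% within replicate 2, and by -9.81% to 6.13% without 1 library. Libraries of the same number deviated together from their group means (r = 0.472 across 15070 genes, 0.422 without X and Y genes, genes not being independent replicates). With 2 libraries per genotype, changes inside the intervals printed above were not resolved.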
